A study of Mus musculus with 12 samples.

Results

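The 10 genes *Gata3*, *Bcl11b*, *Notch1*, *Cd3d*, *Cd3e*, *Cd3g*, *Cd28*, *Thy1*, *Lck* and *Cd4*, which mark or build the T-lineage, were followed in mouse B-ALL cells with and without the GSK3β inhibitor LY2090314. They were listed by name, with earlier results of these data known, and all 10 are among the 41444 genes of the deposited table. The cells were bone marrow pre-B cells of *Ctnnb1* fl/fl genotype, grown with IL-7 and then transformed in culture by retroviral *BCR*-*ABL1*. Both groups carried the ERT2 vector, which has no Cre, so the floxed β-catenin alleles were left intact. Both also received 4-OHT, the active tamoxifen metabolite, at 1 µM for 2 days. The 3 treated samples received LY2090314 at 40 nM as well, for 1 day per the labels (the study's text gives a shorter time), and the 3 control samples did not. The comparison asks which expression changes follow GSK3β inhibition in cells that still have β-catenin.

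T cells and B cells arise from shared lymphoid progenitors. In the thymus, Notch1 signals switch on Gata3, Tcf7 and then Bcl11b, and these factors commit the cell to the T-lineage. The CD3 chains carry the signal of the T cell receptor into the cell. The kinase Lck, which the coreceptors Cd4 and Cd8 bind, phosphorylates them, and the kinase Zap70 then docks on the phosphorylated chains. Cd28 is a costimulatory receptor and Thy1 a surface glycoprotein of mouse T cells. Several of these genes, *Lck* and *Cd28* among them, are also known in some B-lineage and plasma cells.

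Values are regularized log2 (rlog) expression, in which read counts were scaled between libraries and genes with few reads were drawn towards their own mean. Differences of such genes are therefore understated, and no value of a gene with few reads can be turned back into a number of reads. The 3 control samples are numbered 1 to 3 here, and so are the 3 treated samples; the numbers only name the columns. The column names of treated samples 1 and 2 begin with the same number, followed later by the letter A or B. The labels do not explain this. The study's legend gives 3 mice as biological replicates, but the column names do not say which mouse a sample came from. Across genes the SD of the difference between treated samples 1 and 2 was 0.186, against 0.253 between either and treated sample 3. For control pairs it was between 0.185 and 0.239. The cells expressed the pre-B cell markers: all 12 of 12 had a mean of at least 3. The highest on average was *Cd79a*, a subunit of the B cell receptor, at 14.04 in control and 14.28 in treated samples. The lowest was *Rag2*, named after its values were seen, at 6.40 and 4.59. With LY2090314, 10 of the 12 pre-B cell markers fell, 1 did not pass the threshold (*Cd79a*) and 1 rose, *Dntt* (11.12 and 11.76), named after its values were seen, which encodes the polymerase that adds bases at antigen receptor joins in pro-B and T cell precursors. Of all 11536 genes tested, 25.3% fell and 24.8% rose. The summed level of these 12 markers was between 16.34 and 16.36 in control and between 15.76 and 15.91 in treated samples on the log2 scale.

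Of the 10 T-lineage genes, 4 (*Lck*, *Notch1*, *Cd28* and *Thy1*) had a mean rlog value of at least 3 over the 6 samples and were tested, and all 4 reached 3 in both groups. *Cd28* and *Lck* rose with LY2090314, and *Notch1* did not pass the threshold. *Thy1* fell slightly, but passed the threshold in only 2 of the 6 fits that each left out 1 sample. The remaining 6 genes lay below the limit for testing. Of all 11536 genes tested, 50.1% passed an adjusted p of 0.05 (limma with Benjamini-Hochberg adjustment), 24.8% as higher and 25.3% as lower in treated cells, and the 3 of 4 T-lineage genes are to be read against that background. In 3 of these 4 genes, and in 58.6% of all genes tested, treated and control samples did not overlap. The median log2 difference was 0.60 over the 4 genes and 0.01 over all genes tested. RNA came from whole cultures, so a change in the number of cells expressing a gene and a change in the RNA per cell cannot be told apart.

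**Figure D1:**
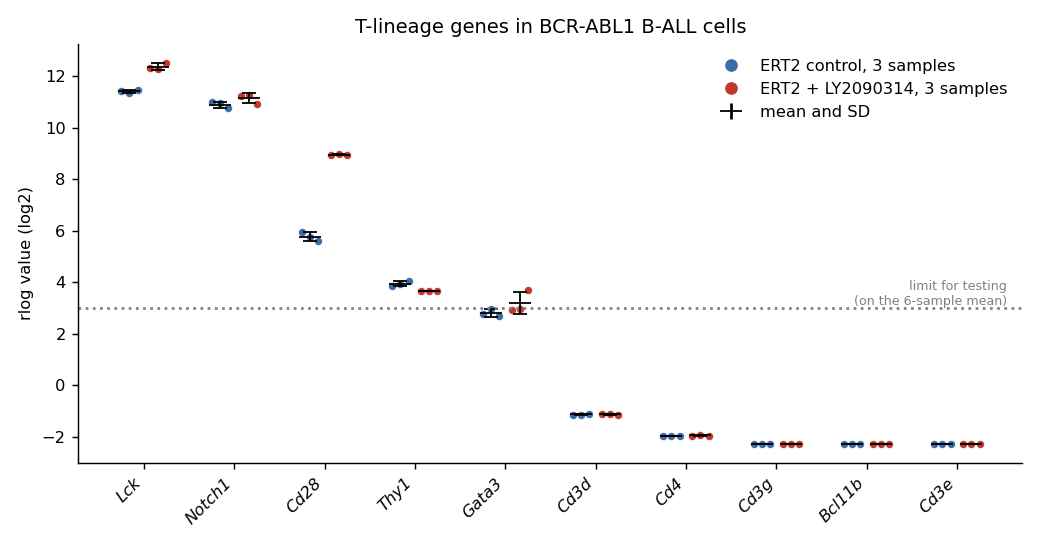
Rlog values (log2) of the 10 T-lineage genes in each of the 3 control samples (blue) and 3 LY2090314-treated samples (red), with mean and SD in black. *Cd28* moves from about 5.75 to 8.95 and *Lck* from 11.41 to 12.36, whereas *Cd3d*, *Cd3e*, *Cd3g*, *Cd4* and *Bcl11b* lie below -1 in every sample.

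*Cd28* (ENSMUSG00000026012, GRCm38 chromosome 1, 60716800 to 60773359, plus strand) had the largest change of the 10. Its rlog value was 5.93, 5.75 and 5.58 in control samples 1 to 3 and 8.93, 8.97 and 8.95 in treated samples 1 to 3. Every treated sample was higher than every control sample, with a gap of 3.0 between the highest control and the lowest treated value. The group means were 5.75 ± 0.17 and 8.95 ± 0.021 (SD, n = 3 each). *Cd28* thus rose by 3.20 in log2 units (standard error 0.10, 95% interval 2.96 to 3.43, adjusted p = 3.04e-07, limma), or 9.17-fold, the 32nd largest rise of 11536 genes. The exact permutation p (two-sided) was 0.10, which is the lowest that 3 samples against 3 allow.

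*Cd28* lies in a cluster of costimulatory receptor genes on chromosome 1, 114 kb from *Ctla4* (60887000 to 60915832), which encodes an inhibitory receptor for the same ligands as Cd28, with *Icos* (60977927 to 61000320) a further 62.1 kb away. *Ctla4* also rose by 2.26 (log2; adjusted p = 3.50e-04, limma), with means of 6.20 ± 0.086 in control and 8.46 ± 0.65 in treated samples (SD, n = 3 each). Its treated values were unequal, at 8.82 and 8.84 in the samples whose column names share that number and 7.71 in treated sample 3. *Icos*, a costimulatory receptor of activated T cells, stayed between -1.64 and -1.58 in all 6 samples. The ligand genes *Cd80* and *Cd86* lay between 1.56 and 1.84 and between 0.34 and 0.44, below the limit for testing. *Icos*, *Cd80* and *Cd86* were singled out after their values were seen.

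*Lck* (ENSMUSG00000000409, GRCm38 chromosome 4, 129548344 to 129573641, minus strand) encodes the Src-family kinase that starts T cell receptor signalling. RefSeq gives it a pair of transcription starts, 15269 bases apart. The 250 bases before each start are shown because *Lck* is the one T-lineage gene past the threshold for which promoter sequence was given. The sequence before the start of *Cd3d*, a CD3 chain gene that lay below the limit for testing, is shown beside them, since it held the most matches to the TCF/LEF core. All 3 are RefSeq sequences of GRCm38.p6, and capitals mark the Ikaros core GGGAA and the TCF/LEF core CTTTGA on either strand (TTCCC and TCAAAG on the reverse).
*Lck*, upstream start, chr4:129573642-129573891, minus strand: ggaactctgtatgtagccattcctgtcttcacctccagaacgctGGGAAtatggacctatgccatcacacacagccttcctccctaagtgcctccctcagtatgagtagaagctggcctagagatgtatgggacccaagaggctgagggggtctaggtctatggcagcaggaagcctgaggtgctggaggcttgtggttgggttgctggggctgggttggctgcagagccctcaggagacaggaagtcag
*Lck*, downstream start, chr4:129558373-129558622, minus strand: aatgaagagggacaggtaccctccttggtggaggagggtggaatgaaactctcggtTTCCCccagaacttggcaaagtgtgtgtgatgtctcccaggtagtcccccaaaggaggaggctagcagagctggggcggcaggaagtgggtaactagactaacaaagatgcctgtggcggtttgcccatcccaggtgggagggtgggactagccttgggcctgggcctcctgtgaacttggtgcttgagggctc
*Cd3d*, chr9:44981536-44981785, plus strand: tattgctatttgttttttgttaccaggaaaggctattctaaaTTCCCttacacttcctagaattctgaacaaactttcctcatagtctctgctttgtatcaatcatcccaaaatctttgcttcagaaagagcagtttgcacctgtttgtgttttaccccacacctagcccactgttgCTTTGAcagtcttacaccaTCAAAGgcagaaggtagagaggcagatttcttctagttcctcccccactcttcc

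Promoter sequence was found for 7 of the 10 genes, with 8 promoters in all. GGGAA occurred in 5 of the 8, and in 56.2% of all 32851 promoter windows of this length. CTTTGA occurred in 2 of the 8, *Cd3d* with 2 matches and *Bcl11b* with 1, and in 13.8% of all windows. TGGGAA, the core bound by the Notch effector Rbpj, which contains GGGAA, occurred in 3 (upstream *Lck*, *Cd3e* and *Cd3g*) and in 21.6% of all windows. GATAA, the GATA core, occurred in 1 (*Cd3g*) and in 22.6%. Neither *Lck* window held CTTTGA. Both strands were searched, and a match is a string of letters and not a site shown to be bound.

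The rlog value of *Lck* was 11.40, 11.36 and 11.47 in control samples 1 to 3 and 12.32, 12.26 and 12.51 in treated samples 1 to 3. The groups did not overlap, and treated sample 3 was the highest. *Lck* rose from 11.41 ± 0.055 to 12.36 ± 0.13 (SD, n = 3 each), by 0.95 in log2 units (standard error 0.071, 95% interval 0.79 to 1.12, adjusted p = 2.17e-05, limma), or 1.94-fold. The exact two-sided permutation p was 0.10. Its rise was at rank 530 of the genes tested. The microRNA gene *Mir8119*, which shares 25 exon bases with *Lck*, was at -2.12 in both groups.

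*Thy1* (ENSMUSG00000032011, GRCm38 chromosome 9, 44043384 to 44048579, plus strand) encodes a membrane-anchored glycoprotein that marks mouse thymocytes and T cells. Its rlog value was 3.84, 3.93 and 4.06 in control samples 1 to 3 and 3.67, 3.66 and 3.67 in treated samples 1 to 3. The groups did not overlap, but the gap between them was 0.17. The treated values lay within 0.0071 of each other, and of 1406 genes tested with a treated mean between 3 and 5, only 5, counting *Thy1*, had a treated SD as small. *Thy1* fell by 0.28 in log2 units (standard error 0.083, 95% interval -0.47 to -0.09, adjusted p = 0.0247, limma; exact two-sided permutation p = 0.10). With single samples left out, the adjusted p (limma) of *Thy1* ranged from 0.0232 to 0.0747 and passed the threshold in 2 of 6 fits, those without control sample 1 or treated sample 3. It was lost without control sample 2 (0.0623) or 3 (0.0747) and without treated sample 1 (0.0601) or 2 (0.0662).

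The 3 CD3 chain genes lie together on chromosome 9. *Cd3g* (ENSMUSG00000002033, 44969572 to 44980431, minus strand) and *Cd3d* (ENSMUSG00000032094, 44981786 to 44987339, plus strand) are transcribed away from each other across a gap of 1354 bases, and *Cd3e* (ENSMUSG00000032093, 44998740 to 45009627, minus strand) lies 11.4 kb further on. None of them reached the limit for testing. *Cd3e* and *Cd3g* were at -2.28 in each of the 6 samples, which is the lowest value found for any gene in these 6 columns. *Cd3d* was at -1.15, -1.15 and -1.13 in control samples 1 to 3 and at -1.12, -1.12 and -1.15 in treated samples 1 to 3. Control and treated samples overlapped and their means differed by 0.01. *Cd4* (ENSMUSG00000023274, chromosome 6, 124864692 to 124888221, minus strand), the coreceptor that binds Lck in helper T cells, was at -1.96 in 5 samples and at -1.93 in treated sample 2. With shrunken values this low, a change in the CD3 chains or *Cd4* was not detectable.

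Of the 12 markers on the T cell list, which includes the 3 CD3 genes, 2 reached the limit for testing, *Ubash3a* (9.02 in control and 9.13 in treated samples, adjusted p = 0.144, limma) and *Cd2* (7.68 and 8.22, adjusted p = 0.025, limma). The receptor constant region genes *Trac* and *Trbc1* had highest values of 2.04 and -1.96, *Trbc2* and *Themis* were listed at 0 in all 6 samples, and the highest value of *Cd247*, *Cd8a* and *Cd8b1* was 1.01. Exact zeros were given for 21786 genes of the table in all 6 samples. They were left out of the summed levels and are not to be ranked above the negative values. The summed level of the T cell list was between 9.45 and 9.62 in control and between 9.70 and 9.86 in treated samples on the log2 scale. Only *Ubash3a* and *Cd2* of this list exceeded 2.04 in any sample. Of the 8 NK cell markers, 1 was tested (*Klrd1*, 4.07 in control and 5.27 in treated samples). The summed level of the list was at most 4.71 in control and at least 5.47 in treated samples. *Klrb1c*, named after its values were seen, went the other way (2.24 in control and 2.02 in treated samples). Apart from *Klrd1* and *Klrb1c*, no marker of this list exceeded 1.02 in any sample. Of the 8 myeloid markers, 1 was tested (*Lyz2*, 5.80 and 6.34), with a summed level of at most 6.0 in control and at least 6.36 in treated samples. No stromal marker (0 of 7; highest *Lepr* at 1.10 in control) and 1 of 7 erythroid and megakaryocytic markers (*Hbb-bt*, 3.74 and 3.29) reached the limit. The summed level of the stromal list was between 1.58 and 1.68 over the 6 samples, and that of the erythroid and megakaryocytic list was at most 4.71 in control and 4.45 in treated samples. What part the shifts in these marker lists and in the pre-B cell list have in the changes of *Cd28*, *Lck* and *Thy1* was not tested.

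*Notch1* (ENSMUSG00000026923, GRCm38 chromosome 2, 26457903 to 26516663, minus strand) had rlog values of 10.98, 10.94 and 10.75 in control samples 1 to 3 and 11.23, 11.27 and 10.91 in treated samples 1 to 3. Treated samples 1 and 2 were above all controls, and treated sample 3 lay between control samples 2 and 3. The means were 10.89 ± 0.12 and 11.14 ± 0.20 (SD, n = 3 each), and the log2 difference was 0.25 (standard error 0.11, 95% interval 0.0048 to 0.49 before adjustment, adjusted p = 0.0832, limma; exact two-sided permutation p = 0.30). Without treated sample 3 the difference was 0.36 and passed the threshold (adjusted p = 0.0051, limma). With each of the other 5 samples left out it did not, up to an adjusted p of 0.236. Antisense transcripts share exon sequence with *Notch1*, the larger overlap being that of *0610009E02Rik* (1068 bases), which was at 2.3 in control and 2.2 in treated samples.

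*Gata3* (ENSMUSG00000015619, GRCm38 chromosome 2, 9857078 to 9890034, minus strand), the zinc finger factor needed at the earliest T-lineage stages, missed the limit for testing with a mean of 2.99. Its rlog value was 2.75, 2.96 and 2.67 in control samples 1 to 3 and 2.91, 2.95 and 3.68 in treated samples 1 to 3. Treated sample 3 stood above the other 5 samples, which lay between 2.67 and 2.96. The mean was 2.79 ± 0.15 in control and 3.18 ± 0.43 in treated samples (SD, n = 3 each), a log2 difference of 0.39 with treated sample 3 and 0.14 without it. When genes of any level were tested, the adjusted p of *Gata3* was 0.306 (limma). *Bcl11b* (ENSMUSG00000048251, chromosome 12, 107910403 to 108003602, minus strand), the zinc finger repressor that closes off other fates in committed T cells, was at -2.28 in all 6 samples, the floor of these columns.

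**Figure D2:**
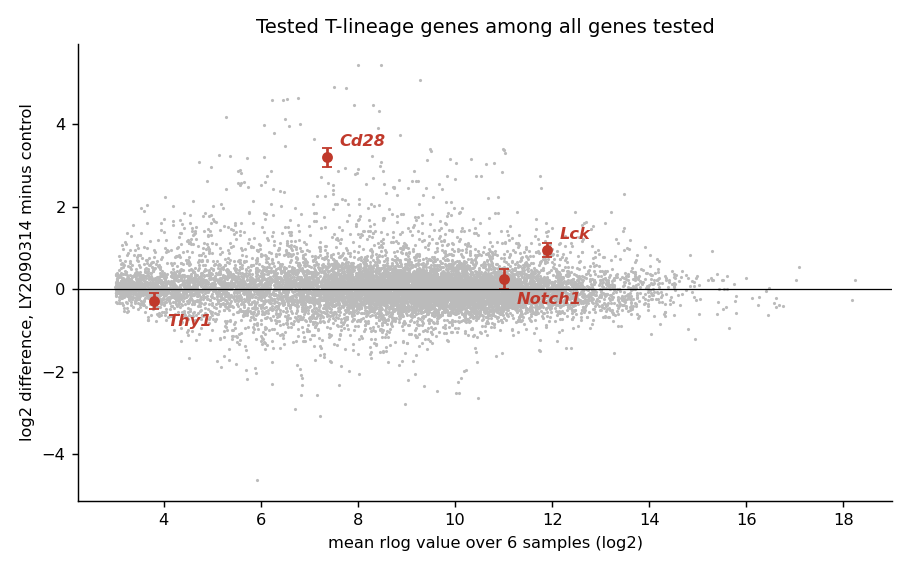
Log2 difference between treated and control samples (vertical axis) against the mean rlog value over 6 samples (horizontal axis) for the 11536 genes tested (grey), with the 4 tested T-lineage genes in red and their 95% intervals. *Cd28* lies far above the bulk of genes at 3.20, *Lck* at 0.95, and *Notch1* (0.25) and *Thy1* (-0.28) lie near 0.

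Levels of different genes were compared after the log2 of the exon length in kb was subtracted. Per kb, *Lck* was the highest in both groups, at 9.86 in control and 10.81 in treated samples, above 91.8% and 96.2% of the genes tested. *Notch1* followed at 7.06 and 7.31, at percentiles 55.2 and 59.1. *Cd28* was at 3.14 in control and 6.34 in treated samples, moving from percentile 11.6 to 42.0. *Thy1* was the lowest of the 4 at 2.36 and 2.08, at percentiles 7.54 and 5.53. The order was the same in both groups, and each step in it was larger than the SDs of the genes on either side: the smallest step was 0.78, between *Cd28* and *Thy1* in control samples (SD 0.17 and 0.11), and *Notch1* and *Cd28* were 0.97 apart in treated samples (SD 0.20 and 0.021).

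The genes whose 6 values, centred on their own mean, came closest to those of *Cd28* were *Cpm*, a carboxypeptidase gene (root mean square difference 0.081; log2 difference 3.15), and *Fbxl12*, an F-box gene (0.084; 3.34). For *Lck* they were *Cndp2*, a dipeptidase gene (0.031; 0.90), and *Zfp658*, a zinc finger gene (0.034; 0.95). For *Thy1* they were *Map4k1* (0.019; -0.27) and *Isy1* (0.023; -0.27). With 6 samples in 2 groups this likeness mostly restates the size of the difference.

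Many genes that T cells use for signalling downstream of the receptor were expressed in these cells, in which the CD3 chain genes lay below the limit for testing. Not all of these signalling genes are particular to T cells. The list of the T cell receptor complex and its proximal signalling held 28 genes, of which 27 were in the table and 16 were tested. Of these 16, 10 rose, 3 fell and 3 did not pass the threshold, with a median log2 difference of 0.39. Of all genes tested, 24.8% rose and 25.3% fell. *Zap70*, the kinase that docks on phosphorylated CD3 chains after Lck has acted, rose by 2.81 (log2; adjusted p = 1.12e-06, limma), with means of 6.58 ± 0.22 in control and 9.38 ± 0.081 in treated samples (SD, n = 3 each). *Grap2*, an adaptor, rose by 1.60 (adjusted p = 2.01e-07, limma). *Prkcq*, the protein kinase C theta of the Cd28 and T cell receptor pathways, rose by 1.58 (adjusted p = 8.89e-07, limma). *Plcg1*, the phospholipase that T cells use to release calcium, fell by 1.99, from 11.17 ± 0.024 to 9.18 ± 0.30 (adjusted p = 1.29e-05, limma). *Csk* and *Pag1*, a kinase that restrains Lck and the membrane anchor that recruits it, fell by 0.45 (adjusted p = 6.59e-04, limma) and 0.24 (adjusted p = 0.00416, limma). These 6 genes were named by a rule that required groups without overlap. Among those that did not pass the threshold were the adaptor gene *Lcp2* (7.44 in control and 7.71 in treated samples), named after its values were seen, and *Ubash3a*, a phosphatase-family gene (values above).

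**Figure D3:**
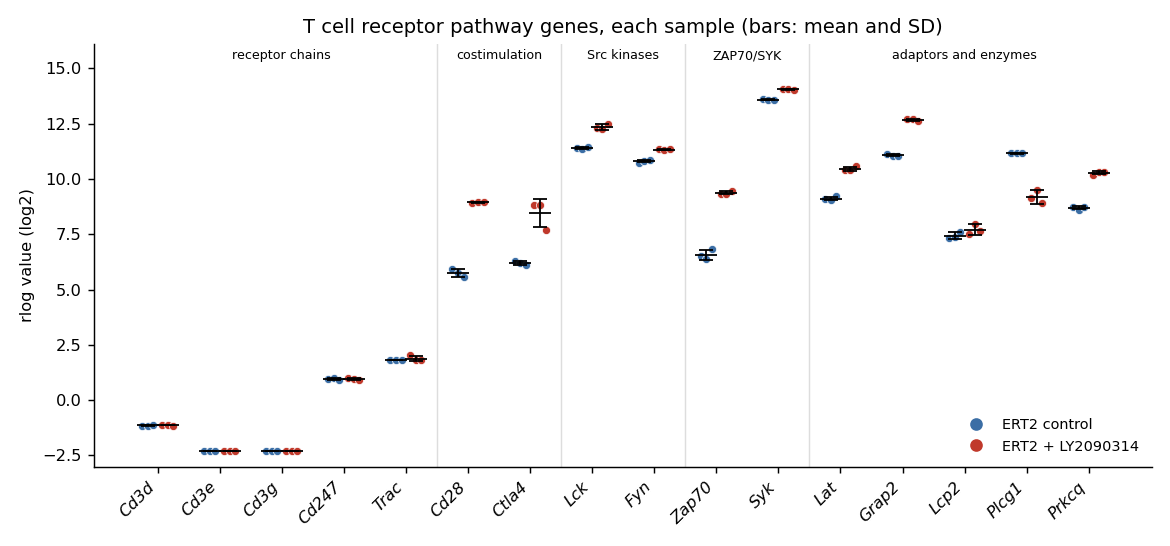
Rlog values (log2) in each control (blue) and treated (red) sample for genes of the T cell receptor pathway, picked by role after the values were seen and ordered from receptor to enzymes, with mean and SD. The receptor chains lie at or below 2.04 in every sample. *Cd28*, *Ctla4*, *Lck*, *Fyn*, *Zap70*, *Syk*, *Lat*, *Grap2* and *Prkcq* are higher in all treated samples. *Plcg1* is lower in all treated samples, and the groups overlap for *Lcp2*.

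Of 24 T cell surface and costimulation genes, 13 were tested; 12 rose, 0 fell and 1 did not pass the threshold, with a median log2 difference of 1.16. Of the tested genes of the list, 92.3% rose, against 24.8% of all genes tested. This list, like the others, was chosen with earlier results of these data known, so the contrast is a description and not a test. The largest rises in the list included those of *Ctla4* (above) and *Il2ra*, a chain of the interleukin-2 receptor that also marks pre-B cells, which rose from 9.06 ± 0.075 to 11.81 ± 0.071 (SD, n = 3; difference 2.75, adjusted p = 3.96e-08, limma). *Slamf1*, a receptor of the SLAM family, was the gene that did not pass (4.78 in both groups), and was named after its values were seen. Many genes of this list are known from other blood cells as well as T cells. The list did not include *Cd28*, *Thy1* or *Cd4*.

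Among 21 other transcription factors used in early T-lineage cells, 19 were tested, of which 11 rose, 5 fell and 3 did not pass the threshold, with a median log2 difference of 0.29, beside 24.8% of all genes tested that rose and 25.3% that fell. *Tcf7*, a TCF/LEF factor that acts beside Gata3 and before Bcl11b in the thymus, rose from 7.92 ± 0.081 to 10.55 ± 0.052 (SD, n = 3; difference 2.62, adjusted p = 7.67e-08, limma), while *Gata3* and *Bcl11b* themselves stayed at the values given above. *Ets2*, an Ets family factor, rose by 1.96 (adjusted p = 6.48e-07, limma), and *Lmo2*, a cofactor of early progenitors and of T cell leukaemia, by 1.75 (adjusted p = 3.37e-06, limma). *Bcl11a*, the paralogue of *Bcl11b* needed for B cell development, fell from 11.21 ± 0.056 to 9.25 ± 0.086 (log2 difference -1.96, adjusted p = 2.53e-07, limma). *Id3*, an inhibitor of E proteins, fell by 1.5 (adjusted p = 2.66e-06, limma), and *Egr1*, an immediate early gene, by 0.50 (adjusted p = 0.00115, limma). The other falls were those of *Hhex* (-0.38) and *Satb1* (-0.30), and *Zbtb7b*, *Lyl1* and *Spi1* did not pass the threshold, with differences of 0.20, -0.02 and 0.06. These 5 were named after their values were seen.

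Around *Notch1*, 36 genes of the Notch pathway were listed and 27 tested. Of these, 6 rose, 8 fell and 13 did not pass the threshold, with a median log2 difference of 0.06. A share of 51.9% past the threshold is close to the 50.1% of all genes tested. The 3 largest rises were in receptor processing and nuclear function: *Adam10*, the protease that cuts Notch after ligand binding (1.12, adjusted p = 1.20e-05, limma), *Ncstn*, a γ-secretase subunit (0.69, adjusted p = 1.99e-05, limma) and *Maml1*, a coactivator (0.48, adjusted p = 2.38e-04, limma). The 3 largest falls were those of *Maml3*, another coactivator, from 9.99 ± 0.018 to 8.38 ± 0.081 (-1.61, adjusted p = 7.55e-07, limma), and of *Hes1* and *Nrarp*, a repressor and a feedback regulator that are textbook targets of Notch. *Hes1* fell from 8.62 ± 0.019 to 7.62 ± 0.26 (-1.0, adjusted p = 3.89e-04, limma) and *Nrarp* from 8.39 ± 0.0095 to 7.5 ± 0.10 (-0.89, adjusted p = 6.02e-05, limma; SD, n = 3 each). *Ptcra*, the pre-T cell receptor gene and a Notch target in thymocytes, was between 0.77 and 0.85 in all 6 samples, and was singled out after its values were seen.

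**Figure D4:**
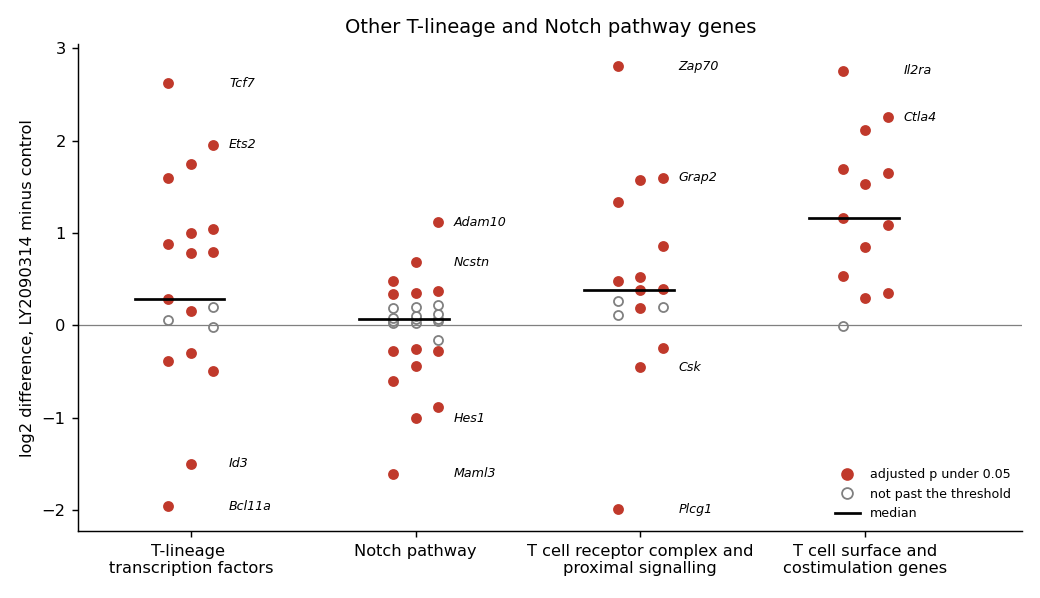
Log2 difference between treated and control samples (vertical axis) of each tested gene in 4 lists of other T-lineage and Notch pathway genes (points in columns). Filled points passed an adjusted p of 0.05, bars give list medians (0.29, 0.06, 0.39 and 1.16 from left to right), and the 2 largest rises and falls past the threshold without overlap are named in each list.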

How the data were processed

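Polyadenylated RNA was sequenced. According to the study's methods, the authors used Salmon for transcript quantification, STAR with GRCm38 and GENCODE vM24 for alignment, and DESeq2 (1.30.1). The deposited values are on a log2 scale (rlog) without counts, so library depth is unknown, no count test was run and no counting interval is given. Of the 12 columns, the 3 of ERT2 cells and the 3 of ERT2 cells with LY2090314 were matched by name and used. The other 6, whose names combine Cre and LY in a pair of spellings, were not used.

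Genes with a mean of at least 3 over the 6 samples were kept (11536 of 41444). The test was limma 3.58.1, run in R 4.3.3 with a mean-variance trend, Benjamini-Hochberg adjustment over all genes kept and a threshold of 0.05. The fit was also run on simulated data in which far fewer genes changed and the samples were independent. That run does not measure how reliable the calls are in these data. Intervals are from limma and not adjusted. Marker lists were summed as 2 to the power of the rlog value, leaving out genes listed at 0. Symbols, positions and exon lengths came from GENCODE vM21 of GRCm38 (41157 identifiers matched) and promoters, cut to the 250 bases before the start, from RefSeq GRCm38.p6. Genes named by rule were the 10 T-lineage genes, the 3 largest rises and falls past the threshold without overlap in each list, the highest marker of each marker list, and the nearest 2 genes to each of the 3 T-lineage genes with the largest change. Some genes of the lists are not reported here by name. Genes outside the rule are said to be so, are members of the T cell marker list, or overlap the exons of a T-lineage gene. The genes and lists were chosen with earlier results of these data known. P-values measure only the spread between these samples. Alternatives were no trend, no filter, a minimum of 5, median centring, quantile normalization, leaving out each sample, counting the columns of treated samples 1 and 2, whose names begin with the same number, as 1, a threshold of 0.01, a log2 difference of at least 1, and the longest transcript as the length.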

Additional observations from a re-analysis of the deposited data

How the results depend on the processing

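A further demand for a log2 change of at least 1 moved the counts most: 693 genes in all passed instead of 5778, 1 of the 10 T-lineage genes (*Cd28*) instead of 3, 8 instead of 16 transcription factors, 3 instead of 14 Notch pathway genes, 5 instead of 13 genes of the receptor complex and its signalling, and 8 instead of 12 surface and costimulation genes. The list counts under the alternatives were added after the values were seen, and under the other alternatives all 6 counts stayed within 1.5 times (4021 to 6225 for all genes). *Cd28* rose by 3.11 to 3.29 and *Lck* by 0.88 to 1.00, with an adjusted p (limma) of at most 2.4e-05 and 0.000507. *Thy1* fell by 0.22 to 0.40 with an adjusted p from 0.00587 to 0.0747, and counting treated samples 1 and 2 as 1 sample gave 0.0575. *Notch1* passed the threshold in 1 of 14 alternatives, that without treated sample 3. *Gata3* passed in 0 of 4 that could test it, with an adjusted p from 0.087 to 0.307. Median centring and quantile normalization left the sign of every called list gene as it was, and shifted the median of all genes to -0.01 and -0.04. Called genes that were higher made up 49.5% of calls, 45.7% after median centring and 43.4% after quantile normalization. With the longest transcript in place of all exons, the level per kb of all 4 tested genes moved by more than its SD. No paired analysis was possible because nothing in the names of the 6 columns ties a control sample to a treated one. The depth of the libraries is unknown, and the shrinkage of low values limits what can be said of *Gata3*, *Bcl11b*, *Cd4*, *Thy1* and the CD3 chains.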
